A study of Mus musculus with 2 samples.

Results

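The genes described here are the brakes of the cell cycle: 7 inhibitors of the cyclin-dependent kinases (CDKs), Cdkn1a, Cdkn1b, Cdkn1c, Cdkn2a, Cdkn2b, Cdkn2c and Cdkn2d, and the 3 retinoblastoma or pocket proteins, Rb1, Rbl1 and Rbl2. Their probes were chosen by gene name alone, which gave 15 distinct probes of 41174 on the array, in 51 spots per array. Of these probes, 13 had signal well over background on both arrays, in one or both channels, and were tested; they cover 8 of the 10 genes. Cdkn2a and Cdkn2b did not pass.

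RNA came from C2C12 cells, a mouse myoblast line that the labels trace to adult leg muscle of strain C3H. Knockdown cells carried a stable short hairpin RNA against Mybbp1a, a mainly nucleolar protein that binds transcription factors, and control cells carried a control hairpin. Both were mixed stable clones, grown below confluence in medium with 20% serum. Each of 2 two-colour arrays, named as biological replicates, set Cy5-labelled RNA of knockdown cells against Cy3-labelled RNA of control cells, from 0.5 µg of total RNA each. Since no dye swap was made, a dye bias that normalisation leaves cannot be told apart from the knockdown. Whether the replicates are separate infections, clone pools or cultures is not stated in the labels, and each p-value therefore reflects the spread of these samples alone, possibly a technical one.

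Mybbp1a itself, the gene targeted, had a log2 ratio of knockdown over control of -1.64 on array 1 and -1.91 on array 2 (mean -1.78 ± 0.19, SD, n = 2), with a limma adjusted p of 0.137. The median spot signal was 329 and 449 in the knockdown channel and 159 and 184 in the control channel on arrays 1 and 2. Of 27006 tested probes, 0 were called higher and 0 lower in limma at an adjusted p under 0.05, while at an unadjusted p under 0.05 there were 3432 higher and 2454 lower. The fit had 1 residual degree of freedom per probe, and limma moderated each probe's variance toward that of all tested probes. Its standard errors and p-values thus do not rest on a probe's own 2 ratios alone. The smallest p that an exact sign-flip test of 2 arrays allows is 0.5. All 8 myoblast markers, among them Myod1, Myf5 and Des, were well above background in both channels of both arrays.

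Cyclin D with Cdk4 or Cdk6, and then cyclin E with Cdk2, drive a cell out of G1 by phosphorylating the pocket proteins, which until then hold E2F transcription factors and keep genes of DNA replication silent. The INK4 inhibitors (Cdkn2a to Cdkn2d) bind Cdk4 and Cdk6 alone, while the Cip/Kip inhibitors (Cdkn1a to Cdkn1c) bind a wider range of cyclin and CDK complexes. In muscle, exit from the cell cycle precedes fusion of myoblasts, and p21, p57 and pRb are known for their part in that exit.

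Because Cdkn1b and Rb1 were each read by probes that gave unlike ratios, and Cdkn1c by the probe with the highest ratio of the set, the sequences of these probes are given first. Positions are those of mouse build mm8 as the array design gives them. One probe of Cdkn1b (A_51_P169173) and one of Rb1 (A_52_P419873) are printed whole and called coding probes below, from background knowledge of these genes, since no annotation of mm8 was used here, and for the others the central 30 of 60 bases are given (positions 16 to 45 from the 5′ end).
Cdkn1b, A_51_P169173, chr6:134886778-134886836, plus strand: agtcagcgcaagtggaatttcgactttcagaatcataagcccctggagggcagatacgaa
Cdkn1b, A_52_P673863, chr6:134889281-134889340, plus strand: ataagactctagtcaaaagcactcgtgcag
Cdkn1b, A_51_P146126, chr6:134890890-134890949, plus strand: tgagaaaaacttggaagtgtgcctgtgtat
Cdkn1c, A_51_P339540, chr7:143268238-143268297, minus strand: ggttttgtggaaatctgaaaactgtgcaat
Rb1, A_52_P419873, chr14:71996708-71996767, minus strand: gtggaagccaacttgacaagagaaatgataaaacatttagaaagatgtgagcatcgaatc
Rb1, A_51_P136888, chr14:71929755-71929814, minus strand: gcttcgagatttcttaaagctgcagacact

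Among the Cip/Kip genes, Cdkn1c and the brightest probe of Cdkn1b were higher in the knockdown cells on both arrays, and Cdkn1a was higher on one array alone. Cdkn1c encodes p57, an imprinted inhibitor expressed from the maternal allele. Its level on the log2 scale was 8.31 and 8.11 in knockdown cells, against 7.54 and 6.93 in control cells. The knockdown channel thus read higher within each array. The ratio on the log2 scale read 0.76 (array 1) and 1.18 (array 2) (mean 0.97 ± 0.29, SD, n = 2; 1.96-fold), with a limma standard error of 0.14 and an adjusted p of 0.153, which did not pass. This mean stood at the 98.6th percentile of all tested probes.

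The Cdkn1c probe was dim. Its raw spot signal was 387 and 474 in knockdown cells and 117 and 93.5 in control cells, where the 95th percentile of the 153 negative control spots was 96.0 and 111 in the knockdown channel and 74.5 and 83.0 in the control channel. The size of its ratio differed between processings. Normexp with an offset of 16 in place of 50 gave 0.93 and 1.49 (mean 1.21), and Feature Extraction's own processed signals, which differ in both background correction and dye normalisation, gave 1.20 and 2.22 (mean 1.71). Feature Extraction's error model, which treats each array alone, gave a p of 5.57e-06 on array 1 and 3.66e-12 on array 2. Cdkn1c was the 1 member probe of 13 with such a p under 0.01 and the same direction on both arrays, where 2.71% of tested probes were higher and 0.992% lower by this rule. These p-values cover the error within an array and not the spread between cultures.

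Cdkn1b encodes p27, which binds cyclin E with Cdk2 and is degraded as cells enter S phase. Its brightest probe, A_51_P146126, had a log2 level of 11.48 and 11.41 in knockdown cells, against 11.03 and 10.71 in control cells. The log2 ratio was 0.46 and 0.70 (mean 0.58 ± 0.17, SD, n = 2; 1.49-fold; limma standard error 0.10, adjusted p = 0.158). The probe in the coding sequence, A_51_P169173, was printed in 10 spots and read 0.02 and 0.43 (mean 0.22 ± 0.29). Its spots spread with an SD of 0.043 on array 1 and 0.036 on array 2, so the gap between arrays was larger than the spread between spots. The dim probe A_52_P673863 read -0.10 and 0.19 (mean 0.04 ± 0.21).

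The Cdkn1b probes thus did not give 1 value for the gene. The array design ties the brightest probe to a cDNA clone and the other 2 to the RefSeq transcript of Cdkn1b, and whether the brightest probe reads that transcript was not tested. The brightest probe exceeded the coding probe, which starts 4112 bp upstream, by 0.44 and 0.27 in log2 ratio, and it exceeded A_52_P673863 by 0.56 and 0.51. Both gaps had the same sign on both arrays. Averaging the 3 probes brought the gene's mean log2 ratio down to 0.28.

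Cdkn1a encodes p21, the inhibitor that p53 and, in myoblasts, MyoD are known to raise. Its log2 level was 13.17 and 13.46 in knockdown cells and 12.73 and 13.49 in control cells, so the groups overlapped. Array 1 gave a log2 ratio of 0.44 and array 2 one of -0.03 (mean 0.21 ± 0.33, SD, n = 2; limma adjusted p = 0.464). Its 10 spots were tight, ranging over 0.39 to 0.48 on array 1 and over -0.06 to 0.02 on array 2 after 2 spots with outlier flags were left out there. The gap between the arrays was thus wider than the spread of the spots, and a gap at least this large was seen in 10.03% of all tested probes.

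**Figure D1:**
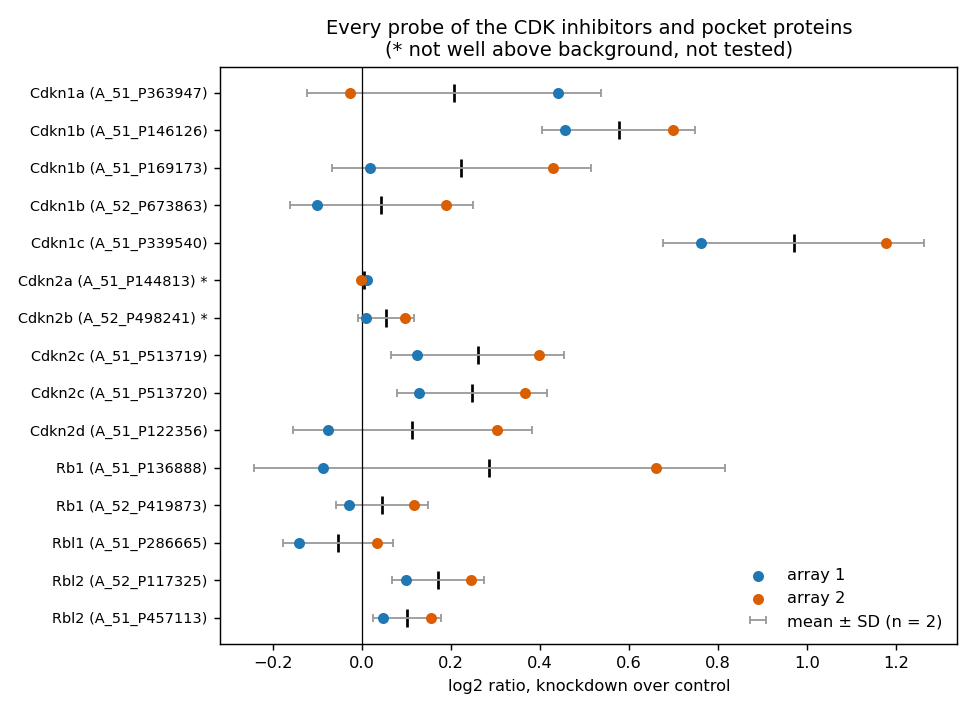
Log2 ratio of knockdown over control for each of the 15 probes, with array 1 and array 2 as points, the mean as a tick and the SD over 2 arrays as a bar. Cdkn1c lies farthest to the right at 0.76 and 1.18, while Rb1 (A_51_P136888) has the widest gap between arrays.

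Of the INK4 genes, Cdkn2c and Cdkn2d were well above background in both channels of both arrays, Cdkn2a was at background, and Cdkn2b was above it in 1 reading only. Cdkn2c encodes p18, which binds Cdk4 and Cdk6. Its brighter probe had a log2 level of 12.24 and 12.39 in knockdown cells, against 12.11 and 11.99 in control cells, a small gap on array 1. Its log2 ratio was 0.12 and 0.40 (mean 0.26 ± 0.19, SD, n = 2; limma adjusted p = 0.276). The second probe, which shares 40 bp with the first, read 0.13 and 0.37 (mean 0.25 ± 0.17). The agreement of this pair is between overlapping sequences and not between independent readings.

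Cdkn2d encodes p19Ink4d, another inhibitor of Cdk4 and Cdk6. Its log2 level was 14.10 and 13.49 in knockdown cells and 14.18 and 13.18 in control cells, which overlap. Array 1 gave a log2 ratio of -0.08 and array 2 one of 0.30 (mean 0.11 ± 0.27, SD, n = 2; limma adjusted p = 0.647), with no shared direction.

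Cdkn2a encodes p16Ink4a and, from another reading frame, p19Arf, and Cdkn2b beside it encodes p15. The spots of the Cdkn2a probe without outlier flags had a mean raw signal of 61.3 and 76.8 in knockdown cells and 60.9 and 67.3 in control cells, close to the medians of the negative control spots, 56.1 and 63.0 in the knockdown channel and 60 and 61.7 in the control channel. Its log2 ratio, 0.01 and -0.001, was that of background in both channels and is not a comparison of the transcript. The Cdkn2b probe had a raw signal of 93.2 and 138 in knockdown cells and 68.3 and 83.2 in control cells and was well above background in 1 of its 4 readings, the knockdown channel of array 2. Mtap, the neighbouring gene that encodes an enzyme of methionine salvage, was well above background in both channels of both arrays, with a log2 level of 12.82 and 12.75 in knockdown cells and 12.83 and 13.07 in control cells. Dmrta1, on the far side of the locus, was not above background in either channel. No difference in Cdkn2a or Cdkn2b was detectable at these signals.

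Of the pocket proteins, none had a called difference, and Rb1 differed more between arrays than between kinds of cell. Rb1 encodes pRb, which represses the activating E2F factors and is needed for lasting cell cycle exit in muscle. Its brightest probe, A_51_P136888, had a log2 level of 12.29 and 12.38 in knockdown cells and 12.38 and 11.72 in control cells, which overlap. Array 1 thus read slightly lower and array 2 higher in the knockdown cells, with log2 ratios of -0.09 and 0.66 (mean 0.29 ± 0.53, SD, n = 2; limma standard error 0.21, adjusted p = 0.480). The SD over the 10 spots of this probe was 0.043 and 0.038, and a gap between arrays this large was seen in 3.60% of tested probes. The coding probe A_52_P419873, 66953 bp away in the gene, read -0.03 and 0.12 (mean 0.05 ± 0.10), but it was dim, with raw signals of 145 and 123 in knockdown cells and 95.6 and 76.0 in control cells.

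Rbl1 encodes p107, a pocket protein that is itself an E2F target and is abundant in cycling cells. It had a log2 level of 12.15 and 12.21 in knockdown cells and 12.29 and 12.18 in control cells, which overlap. The log2 ratio was -0.14 and 0.03 (mean -0.05 ± 0.12, SD, n = 2; limma adjusted p = 0.779), and its sign turned to positive, 0.23, when median centring replaced loess. Rbl2 encodes p130, the pocket protein of resting cells and a part of the DREAM repressor complex. Its brighter probe had a log2 level of 9.72 and 9.5 in knockdown cells and 9.62 and 9.26 in control cells. These levels overlap across arrays, but within each array the knockdown channel read slightly higher. The log2 ratio was 0.10 and 0.24 (mean 0.17 ± 0.10, SD, n = 2; limma adjusted p = 0.356). The other probe read 0.05 and 0.16, so its probes gave like values.

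**Figure D2:**
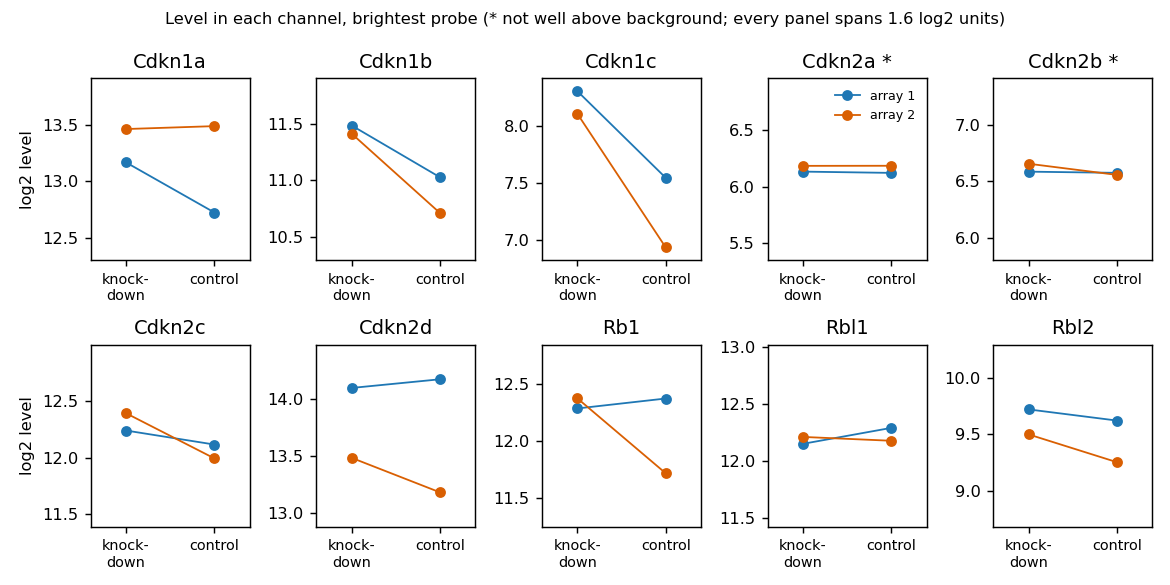
Log2 level in the knockdown and control channel for the brightest probe of each of the 10 genes, 1 line per array, each panel spanning the same number of log2 units. Cdkn1c and Cdkn1b slope down from knockdown to control on both arrays, whereas the lines of Cdkn1a, Cdkn2d, Rb1 and Rbl1 slope opposite ways.

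By mean log2 ratio the 8 tested genes ran Cdkn1c, Cdkn1b, Rb1, Cdkn2c, Cdkn1a, Rbl2, Cdkn2d and Rbl1. The first and second places were the same on both arrays, and Cdkn1c exceeded Cdkn1b by 0.31 and 0.48. Second place was close, with Cdkn1b at 0.46 beside Cdkn1a at 0.44 on array 1, and at 0.70 beside Rb1 at 0.66 on array 2. The order below was loose: Rb1 fell short of Cdkn2c on array 1 and exceeded it on array 2 (-0.21 and 0.26). Of the 7 neighbouring pairs, 3 kept their sign on both arrays. No test of these differences was run.

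At the level of probes, 7 of the 13 tested member probes were higher in knockdown cells on both arrays, where 37.9% of all tested probes were, and 0 were lower on both, where 32.1% were. One probe, that of Cdkn1c, was at least 1.5-fold higher on both arrays (background 2.14%), and 0 were at least 1.5-fold lower (background 0.307%). Called by limma at an adjusted p under 0.05 were 0 of 13 in each direction (background 0%). At an unadjusted p under 0.05 there were 2 higher, Cdkn1c and the brightest Cdkn1b probe (background 12.7%), and 0 lower (background 9.09%). By gene, 4 of 8 were higher on both arrays, namely Cdkn1b, Cdkn1c, Cdkn2c and Rbl2, against 40.6% of 18065 tested genes, and 0 were lower on both, against 29.4%. One gene, Cdkn1c, was at least 1.5-fold higher on both arrays (2.62% of tested genes) and 0 at least 1.5-fold lower (0.338%), and 2 of 8 were higher at an unadjusted p under 0.05 (14.3%). Shares of so few members cannot be set apart from these backgrounds.

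The 2 arrays did not weigh equally in these values. Array 2 read higher than array 1 for 12 of the 13 member probes, whereas it did so for 48.8% of all tested probes, and the median ratio of the 8 genes was 0.11 on array 1 and 0.35 on array 2. Across all tested probes the log2 ratios of the arrays correlated at r = 0.54 (Pearson) and rho = 0.57 (Spearman), given as a description of 2 arrays whose probes are not independent. Over all tested probes the ratios had an SD of 0.30 on array 1 and 0.41 on array 2. The part of a culture, slide or scan in the gap between arrays was not tested.

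**Figure D3:**
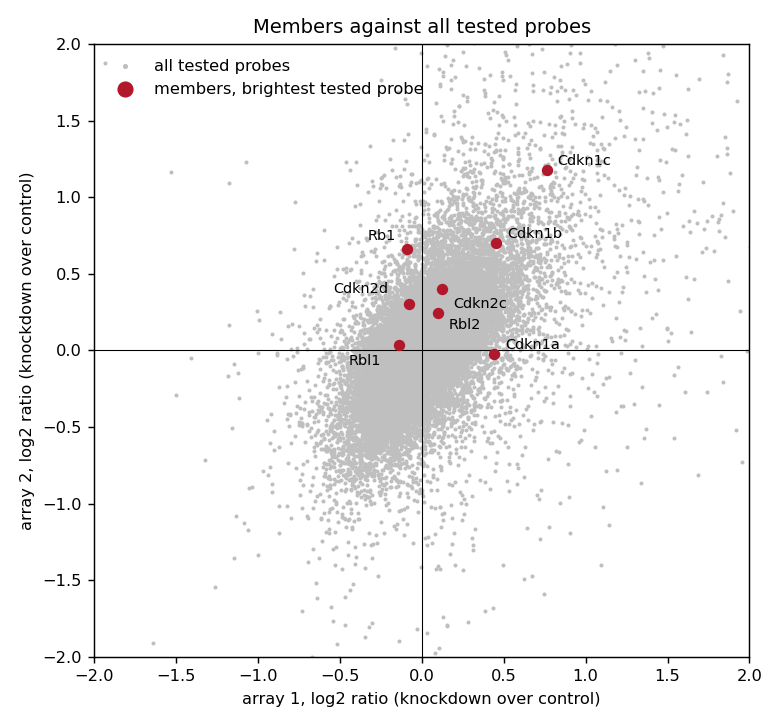
Log2 ratio of knockdown over control on array 1 (x axis) and array 2 (y axis) for all tested probes in grey and the brightest tested probe of 8 member genes in red; 139 grey probes lie outside the axes. Cdkn1c and Cdkn1b sit clear of the zero lines in the upper right, and Rb1 and Cdkn1a lie close to 1 axis each.

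The scale of the ratios depended on the normalisation within the array. With median centring in place of loess, the median of all tested genes was 0.21 in place of 0.03. Cdkn1b (0.84, limma adjusted p = 0.0247), Cdkn1c (1.00, adjusted p = 0.0253) and Cdkn2c (0.54, adjusted p = 0.0419) then passed the threshold. Of all 27006 tested probes, 4361 passed as higher and 121 as lower in this setting, so calls were common over the whole array. The other tested members then read 0.51 for Cdkn1a, 0.57 for Rb1, 0.46 for Cdkn2d, 0.40 for Rbl2 and 0.23 for Rbl1. Relative to the all-gene median of that setting, Cdkn1c stood at 0.79 and Cdkn1b at 0.63, and Rbl1 at 0.01. Dim probes shifted otherwise: A_52_P419873 of Rb1 went from 0.05 to -0.27, and A_52_P673863 of Cdkn1b from 0.04 to -0.06. Taking off 1 all-gene median therefore does not offset the shift alike for bright and dim probes. Under the other settings that kept a limma fit, no member was called.

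**Figure D4:**
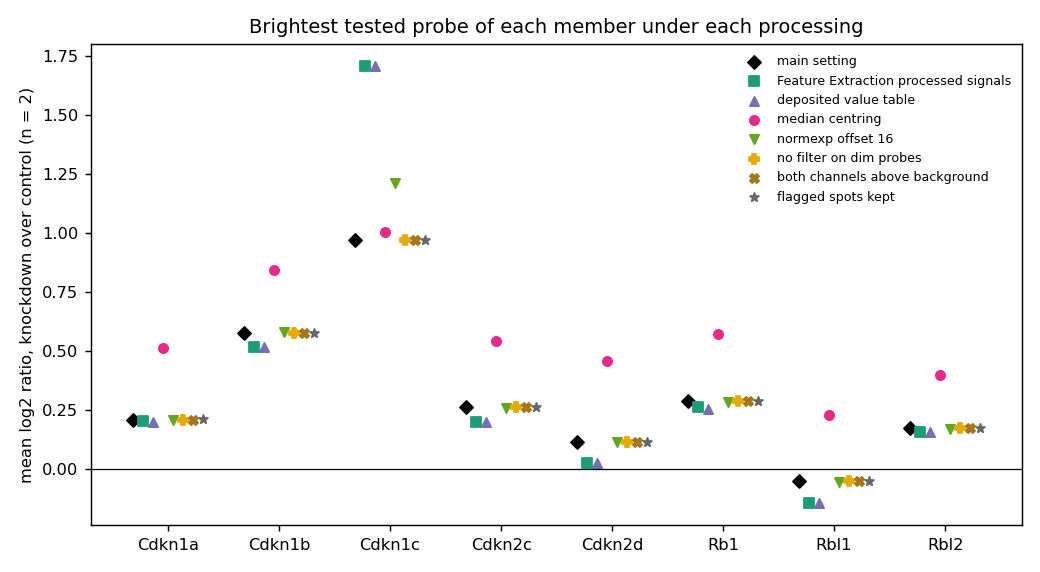
Mean log2 ratio of the 8 tested members (knockdown over control, n = 2 arrays) under each processing, 1 symbol per setting. Median centring lifts each gene by a like amount except Cdkn1c, whose highest values, 1.71, come from the processed signals and the deposited table.

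Around the inhibitors, the cyclins, CDKs and their regulators read mostly lower in the knockdown cells after loess, although none passed the test. Of 19 such genes tested, 13 were lower on both arrays and 4 higher, where 29.4% and 40.6% of all tested genes were. The 13 include Wee1, a kinase that inhibits CDKs (-0.23 and -0.29). The median log2 ratio of the list was -0.26 after loess (0.05 under median centring), against 0.03 (0.21) over all tested genes. The same shares of all tested genes apply to the counts of the lists below. Ccne2, a cyclin E that activates Cdk2, read -0.38 and -0.71 (limma adjusted p = 0.165). Cdc25a, the phosphatase that frees CDKs from inhibitory phosphate, read -0.37 and -0.63. Cdk4, the kinase that the INK4 proteins bind, read -0.32 and -0.55 (adjusted p = 0.169), and Ccnb1, the mitotic cyclin B1, read -0.32 and -0.48. For Ccne2, Cdc25a, Cdk4 and Ccnb1 the values on array 2 were farther from 0 than those on array 1. Ratios also spread more widely on array 2 over all tested probes (SD 0.41, against 0.30 on array 1).

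Genes that E2F factors switch on for DNA replication were lower on both arrays in 23 of 26 cases and higher in 1, where 29.4% and 40.6% of all tested genes were. Their median was -0.26 after loess and 0.09 under median centring. In limma, 12 were lower at an unadjusted p under 0.05, where 8.07% of tested genes were. Limma at an adjusted p under 0.05 called 0 of them. Mcm10, which helps to start the replication fork, had a log2 level of 12.93 and 12.83 in knockdown cells, against 13.58 and 13.43 in control cells. Its log2 ratio was -0.65 and -0.60 (limma adjusted p = 0.153), and it was the 1 gene of this list at least 1.5-fold lower on both arrays. The licensing factors Cdt1 (-0.64 and -0.42) and Cdc6 (-0.44 and -0.53) and thymidylate synthase, Tyms (-0.45 and -0.52), were next in size. Relative to the all-gene median, the cyclins and kinases stood at -0.29 after loess and -0.17 under median centring, and the E2F targets at -0.29 and -0.12.

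The E2F and DP factors themselves had no shared direction, with 3 of 10 higher and 4 lower on both arrays and a median of -0.05 after loess and 0.25 under median centring. E2f2, an activator, read 0.10 and 0.88, while E2f8, a repressor, read -0.29 and -0.39. E2f4, the partner of p130 in resting cells, read -0.17 and -0.38, and Tfdp1, the DP subunit that binds DNA beside E2F, -0.27 and -0.40. The 8 genes of the MuvB core and its partners had a median of -0.24 (0.03 under median centring), or -0.27 (-0.19) relative to the all-gene median. Where 29.4% of all tested genes were lower on both arrays, 6 of these 8 were. Among them were Mybl2, whose B-Myb protein turns MuvB into an activator of mitotic genes (-0.52 and -0.60, limma adjusted p = 0.153), Foxm1, another such activator (-0.49 and -0.20), and the MuvB subunits Lin54 (-0.49 and -0.32) and Lin9 (-0.37 and -0.37).

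Genes for the turnover of the inhibitors leaned the same way after loess, with 9 of 12 lower on both arrays, where 29.4% of all tested genes were. Their median was -0.18 after loess and 0.16 under median centring. Relative to the all-gene median they stood at -0.21 and -0.05, so the lean was small under median centring. That median does not offset the shift alike for bright and dim probes. Skp2, the ubiquitin ligase subunit that marks p27, read -0.19 and -0.23, and its cofactor Cks1b read -0.26 and -0.40. Dtl, which directs p21 to degradation during replication, read -0.28 and -0.18. Kpna2, which the list also counts although it is a nuclear import receptor, had the lowest mean of the list, from -0.31 and -0.59. None passed the limma test at an adjusted p under 0.05.

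Factors known to act on the inhibitor genes were mixed, with 6 of 26 higher and 5 lower on both arrays and a median of 0.05 after loess and 0.31 under median centring. Cbx7, a Polycomb protein known to repress the Cdkn2a locus, had a log2 level of 11.60 and 10.88 in knockdown cells, against 10.77 and 9.26 in control cells. Its log2 ratio was 0.83 and 1.63 (limma adjusted p = 0.158). Other Polycomb genes of the list read lower, Bmi1 at -0.15 and -0.17 and Ezh2 at -0.18 and -0.30. Myogenin, Myog, the factor of early muscle differentiation, read 0.79 and 0.51 (adjusted p = 0.158), with a level of 9.46 and 9.41 in knockdown cells and 8.66 and 8.91 in control cells. Foxo1, which activates Cdkn1b in other settings, read 0.38 and 0.41, and Ets2, a factor of the ETS family, read 0.41 and 0.37. Trp53, which encodes p53, was lower, at -0.21 and -0.44.

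The p53 targets other than Cdkn1a split evenly, with 8 of 23 higher and 8 lower on both arrays and a median of 0.01 after loess and 0.26 under median centring. On array 1 alone their median was 0.18, and on array 2 alone -0.03, the same order as the readings of Cdkn1a. Trp53inp1 (0.84 and 0.42), a stress-induced nuclear protein gene, the death receptor gene Fas (0.87 and 0.26), the sestrin gene Sesn1 (0.40 and 0.73) and the DNA damage gene Gadd45a (0.26 and 0.85) had the largest ratios among those with 1 direction on both arrays. Mdm2, which encodes the ubiquitin ligase of p53, read 0.18 and -0.56, opposite ways on the 2 arrays, and was picked out after its values were seen.

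**Figure D5:**
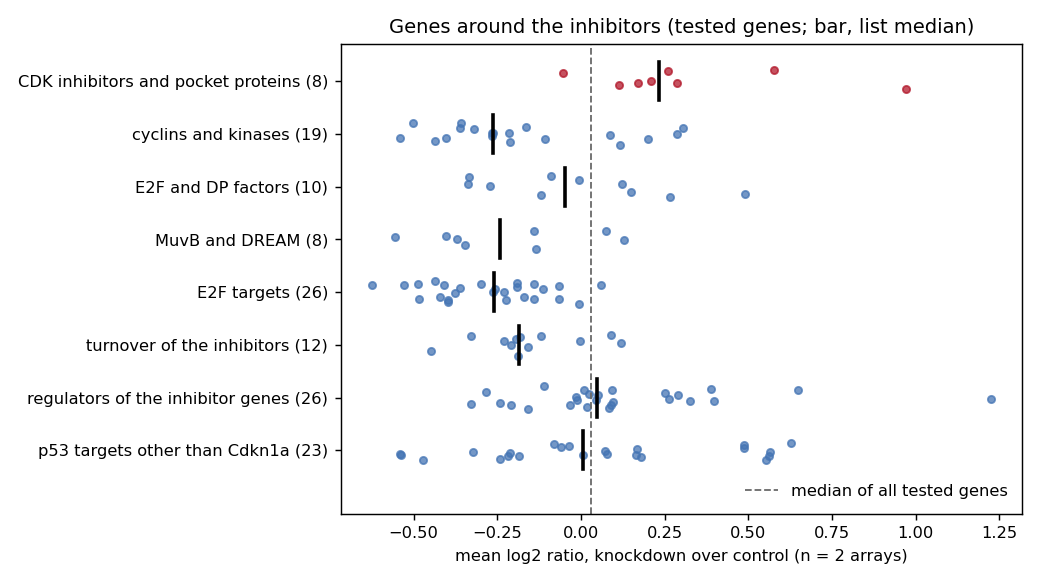
Mean log2 ratio of knockdown over control (2 arrays) for each tested gene of 8 lists, with the list median as a bar and the median of all tested genes as a dashed line. The bars of the cyclins and kinases (-0.26), MuvB and DREAM (-0.24) and E2F targets (-0.26) lie left of the dashed line after loess (0.05, 0.03 and 0.09 under median centring, where the median of all tested genes is 0.21), and that of the CDK inhibitors and pocket proteins (0.23) lies right of it.

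Close to Cdkn1c on chromosome 7 lies a cluster of imprinted genes. Of 7 tested genes beside Cdkn1c or the Cdkn2a locus, 4 were higher and 2 lower on both arrays, with a median of 0.04 after loess and -0.03 in the authors' deposited table. Cd81, a tetraspanin, read 0.58 and 0.86 (limma adjusted p = 0.153). The imprinted Slc22a18 (0.11 and 0.06) and the potassium channel gene Kcnq1 (0.02 and 0.19) read near 0. Mtap, of the Cdkn2a locus, read -0.01 and -0.32. Phlda2 and Kcnq1ot1 were not tested. By the distance of the 2 log2 ratios, the 3 genes nearest to Cdkn1c among 187 compared were Pdgfrb (0.359), Cd81 (0.369) and Col2a1 (0.40), from 2 arrays only.

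Markers of other kinds of cell are given beside these values. Their summed levels weigh the brightest probes most. Of 10 tested markers of fibroblasts or smooth muscle, 8 were higher on both arrays and 1 lower (median 0.71, and 1.10 under median centring), and their summed level was 354940 and 407351 in knockdown cells, against 243868 and 190936 in control cells. Col1a1 read 1.71 and 4.60 and Pdgfra 0.98 and 1.77. The smooth muscle genes of the list were mixed: Acta2 was the 1 lower gene (-0.12 and -0.27), Tagln read 0.52 and -0.01, and Cnn1 read 0.61 and 0.59. Thy1 and Myh11 were not tested. The markers of differentiating muscle had a median of 0.22 after loess and 0.21 under median centring (0.19 and -0.002 relative to all tested genes), with 6 of 12 higher and 2 lower on both arrays, and summed to 7168 and 4953 in knockdown cells and 5427 and 5399 in control cells. Myl1, with the largest absolute mean of this list, was lower at -0.30 and -1.78, while Tnnt1 was higher at 1.27 and 0.61. Myh8 was not tested, and Myh3 was not above background in control cells on either array. The 8 myoblast markers had a median of 0.24 after loess and 0.55 under median centring, with 5 higher and 0 lower on both arrays, and summed to 79912 and 70055 in knockdown cells and 80093 and 48344 in control cells. Fewer cells of a type and less RNA per cell cannot be told apart here, and the part of these markers in the values of Cdkn1c and Cdkn1b was not tested.

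Markers of the remaining cell types were mixed, and their medians are given after loess and then, in brackets, under median centring. Of 4 tested adipocyte markers 2 were higher and 0 lower on both arrays, with a median of 0.27 (0.52). Lpl read 1.21 and 1.56 and Cebpa 0.46 and 0.70, whereas Fabp4 read 0.04 and -0.21 and Pparg -0.13 and 0.04, and Adipoq and Plin1 were not tested. Their summed level was 18189 and 21580 in knockdown cells and 11307 and 11280 in control cells. Of 6 tested osteoblast and chondrocyte markers 3 were higher and 0 lower on both arrays, with a median of 0.06 (0.26). Bglap read 1.92 and 1.63 and Col2a1 0.56 and 1.52, while Sox9, Runx2 and Acan each read above 0 on array 1 and below 0 on array 2, and Ibsp was not tested. These markers summed to 48177 and 41164 in knockdown cells and 37569 and 28261 in control cells.

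The 3 tested endothelial markers were higher on both arrays, with a median of 0.18 (0.16), and summed to 685 and 607 in knockdown cells and 487 and 488 in control cells. Cdh5 read 1.03 and 0.68, but in control cells it was above background on 1 array only. Tek read 0.13 and 0.22 and Vwf 0.26 and 0.04, and Pecam1 and Kdr were not tested. Of 3 tested leukocyte markers 2 were higher on both arrays, with a median of 0.04 (0.12), and their sum was 969 and 1482 in knockdown cells and 938 and 1437 in control cells. The defining leukocyte marker Ptprc was not tested, nor were Adgre1 and Itgam. Of 5 tested neural markers 1 was higher and 2 lower on both arrays, with a median of -0.10 (-0.03), and their sum was 7030 and 8065 in knockdown cells and 7945 and 12804 in control cells. S100b read 0.54 and 0.50 and Tubb3 -0.23 and -0.76, and Gfap was not tested. The sum rests mostly on Tubb3, whose log2 level in control cells was 12.78 and 13.51, against 8.05 and 7.87 for S100b.

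The start regions of the members were searched for short words of factors that act on this pathway, in RefSeq's promoter table for assembly GRCm38.p6, which gave 11 windows for 8 of the genes (not Cdkn1c or Rb1). The Sp1 word GGGCGG was found on either strand in 9 of the 11 windows, against 35.7% of 32851 windows in the table. An E2F word (TTTCGCGC, TTTGGCGC, TTTCCCGC or TTTGCCGC, either strand) was found in 2 of the 11, against 2.26% of all windows, at -18 of Rbl1 and at -99 of 1 Cdkn2a window. The word TTTGAA of the cell cycle genes homology region, on either strand, was in 2 of the 11, against 17.9%. The last 60 bases before the Rbl1 start are shown with the E2F word in capitals. Rbl1 is a tested member known as an E2F target, and its ratio was near 0.
Rbl1, chr2:157204535-157204594, minus strand: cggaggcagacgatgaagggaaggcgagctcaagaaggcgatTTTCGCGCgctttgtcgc
A match describes letters in the window and no bound factor.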

How the data were processed

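Spot signals were extracted by Agilent Feature Extraction, version 9.5.3.1, per the file headers. For each spot the deposited files give the mean and background intensity in both colours without background subtraction, a processed intensity, the log10 ratio (Cy5 to Cy3), and an error-model p-value of that ratio. The authors' deposited table of processed values held log2 ratios: 99.4% of them matched the log10 ratio, put on a log2 scale, to within 0.001, and both columns had a median of 0. How values were left out of it is not given in the sources used here.

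Here, signals were corrected by normexp (offset 50) and ratios normalised by loess (span 0.3) within arrays (limma 3.58.1, R 4.3.3). Loess gave weight 0 to 1639 control spots, and spots with outlier flags were left out (154 and 237). Spots of a probe were averaged; a gene is its brightest probe. Ratios were tested against 0 with lmFit and eBayes, two-sided, with Benjamini-Hochberg adjustment over all 27006 tested probes. Levels are single channels after loess and Aquantile. The script was tested on simulated data. Arrays were on different slides; their number limits the precision. Named genes are all members, Mybbp1a, up to 4 genes per list with the largest mean ratio and 1 direction, and the 3 nearest to Cdkn1c. Trp53, Wee1, Mdm2, Fabp4, Pparg, Sox9, Runx2, Acan, Acta2, Tagln, Cnn1, Bmi1 and Ezh2 were added after their values were seen. Probes were named by accession (23374), current symbol (6733), synonym (2919) or the file's name (8148). Alternatives covered background, normalisation, filters, flags, probes and single arrays. The members and lists were chosen with earlier results of these data known.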

Additional observations from a re-analysis of the deposited data

Results flagged for a closer look

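Spot 5 of the Cdkn2a probe, left out of the values above because the scanner software marked it as an outlier, carried signal in the knockdown channel of both arrays. Its Cy5 signal was 122 on array 1 and 159 on array 2, above the 95th percentile of the negative control spots, 96.0 and 111. Its Cy3 signal, from control cells, was 70.7 and 90.3, against percentiles of 74.5 and 83.0. The other spots of this probe that were kept had a Cy5 signal between 56.6 and 66.3 on array 1 and between 68.9 and 89.0 on array 2. Whether the spot's signal is Cdkn2a RNA was not tested.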

How the results depend on the processing

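Under median centring, probes called were 4361 higher and 121 lower of 27006 tested. On both arrays, 1886 were at least 1.5-fold higher and 27 at least 1.5-fold lower, against 578 and 83 with loess. The share of higher among them was 98.6%, against 87.4% with loess, 75.5% with Feature Extraction's processed signals (782 and 254) and 75.1% with the deposited table (710 and 236). Cdkn1b (0.84), Cdkn1c (1.00) and Cdkn2c (0.54) passed, and Rbl1 turned to 0.23. List medians were 0.53 for the members, 0.049 for cyclins and kinases, 0.25 for E2F and DP factors, 0.028 for MuvB, 0.094 for E2F targets, 0.16 for turnover, 0.31 for regulators, 0.26 for p53 targets and 0.21 for neighbours. With processed signals E2F and DP factors read -0.082, MuvB -0.26, turnover -0.22 and neighbours -0.017; with the deposited table E2F and DP factors read -0.082, MuvB -0.26, E2F targets -0.34 and neighbours -0.029. Averaging probes left 47 genes at least 1.5-fold lower and gave E2F and DP factors -0.078, MuvB -0.17 and neighbours 0.0095, as did no filter for neighbours (0.0095). Feature Extraction's single-array p under 0.01 on both arrays called 732 higher and 268 lower. On single arrays, 1007 to 1789 probes were at least 1.5-fold higher and 216 to 1003 lower; medians ran from -0.23 to -0.21 for MuvB, -0.32 to -0.25 for E2F targets and -0.026 to 0.18 for p53 targets. The causes were not tested. Over the settings that keep both arrays Cdkn1c ranged from 0.97 to 1.71, Cdkn1b from 0.28 to 0.84 and Rb1 from 0.17 to 0.57; on single arrays they ran from 0.76 to 1.18, 0.46 to 0.70 and -0.09 to 0.66, and Cdkn1a, Cdkn2d and Rbl1 also changed sign between arrays. No paired analysis was possible because there is 1 group of ratios, each already pairing the channels of an array; slide as a block was not run, since each slide held 1 array. Dim probes limit Cdkn1c, Cdkn2a and Cdkn2b.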
